A study of Homo sapiens with 6 samples.

Results

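To describe how lysine acetylation (Kac) and lysine benzoylation (Kbz) were distributed at genes that define the blood lineages, peaks were collected at 9 marker genes: PTPRC, CD3E, CD79A, SPI1, TAL1, GATA1, LYZ, MPO and HBB. The genes were chosen as lineage markers with earlier results of these data known, and every peak that overlapped the gene body plus 5 kb on either side by at least 1 bp was counted for the gene. They are 9 of the 20033 protein-coding genes of the annotation. The series was made by ChIP-seq, in which histones are captured by an antibody and the DNA bound to them is sequenced, in cells labelled HepG2, a line derived from a human liver tumour. Control cells were cultured without sodium benzoate (SB) and the SB group received 10 mM SB for 24 h. The antibodies recognise Kac or Kbz on any histone and at any lysine, so no site can be assigned. There were 6 libraries, 1 library per group (input, Kac and Kbz, with and without SB), and 3 peak lists were used, namely control Kac, SB Kac and SB Kbz. The control Kbz library gave no peaks according to its label, and the inputs were not analysed here. Without replicates no difference between lists could be tested, and the number of reads behind each list is unknown, so values are compared within a list and counts between lists are given side by side.

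Each of the marker genes stands for a branch of blood formation. PTPRC encodes CD45, the tyrosine phosphatase on the surface of all leukocytes, while CD3E and CD79A encode signalling chains of the T cell and B cell antigen receptors. SPI1 (PU.1), TAL1 and GATA1 are transcription factors that direct myeloid and lymphoid, stem cell and erythroid, and erythroid and megakaryocytic programmes, in that order. LYZ (lysozyme) and MPO (myeloperoxidase) are antimicrobial products of myeloid cells, and HBB encodes the beta chain of adult haemoglobin. Histone acetylation is generally found at promoters and enhancers that are in use, and a liver cell is not known to use these genes. Histone benzoylation is an acylation whose donor, benzoyl-CoA, cells can form from benzoate.

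The cell line label was examined with genes of the liver. Of 20 liver products, 9 (control Kac), 10 (SB Kac) and 4 (Kbz) had a peak within 3 kb of an annotated start, the window taken as the promoter, and 2, 1 and 0 had the start of the canonical transcript under a peak. No peak of any list lay at a promoter of ALB, APOB, SERPINA1, FGA, FGB, FGG, AMBP, RBP4 and HP, which encode major plasma proteins of hepatocytes. The apolipoprotein gene APOA1 had strong promoter peaks, with an enrichment at percentile 96.6 of control Kac, 95.2 of SB Kac and 95.5 of Kbz. Those of APOA2 stood at 87.5, 95.4 and 90.2. They also overlapped the promoter of another coding gene, TOMM40L, and in SB Kac that of NR1I3. The strongest promoter peaks of the other called liver products stood lower, at 38.8 to 81.9 of control Kac and 11.5 to 74.3 of SB Kac. Among these products Kbz was called only at F2 (6.90) and TAT (34.2). Of 8 liver transcription factors, 6, 6 and 4 had a promoter peak, and FOXA2 and NR1H4 had none. CEBPA stood at percentiles 96.7, 98.3 and 96.6 and ONECUT1 at 90.4, 83.8 and 90.3. Over all protein-coding genes 76.5%, 75.7% and 64.6% had a promoter peak, and 59.1%, 60.4% and 45.8% had their start under one. In contrast, 9, 8 and 8 of 10 genes expressed in every cell had their start under a peak. Liver products were thus called less often than protein-coding genes as a whole. Taken alone this goes against the HepG2 label, while the peaks at APOA1, CEBPA and ONECUT1 do not. The share of promoters under a control Kac peak was 14.9% with 0 to 4 CG pairs and 75.7% with 30 or more. CG pairs were not counted in the liver promoters, so these counts cannot settle the label. Whether the identity of the cells has a part in the results at the blood genes was not tested.

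Peaks were found near most of the 9 genes but seldom at their starts. In the control Kac list 7 of the 9 genes had at least 1 peak in the gene body plus 5 kb, against 82.6% of all protein-coding genes. In the SB Kac list 7 genes had a peak, against 81.4%, and they were the same genes (PTPRC, CD3E, CD79A, SPI1, GATA1, LYZ and MPO). In the SB Kbz list 4 genes had one (CD79A, SPI1, GATA1 and LYZ), against 72.3%. When the peak had to lie within 3 kb of an annotated start of the gene itself, the numbers were 3 for control Kac (CD79A, SPI1 and MPO), 3 for SB Kac (CD79A, SPI1 and GATA1) and 1 for SB Kbz (SPI1). The shares of all protein-coding genes by this rule were 76.5%, 75.7% and 64.6%. The start of the canonical transcript was itself under a control Kac peak in 1 gene (SPI1), under an SB Kac peak in 2 (SPI1 and CD79A) and under a Kbz peak in none of the 9, whereas 59.1%, 60.4% and 45.8% of all protein-coding genes had their start under a peak of these lists. The lists also hold peaks with a deposited −log10 q below 2, the value that corresponds to the false discovery rate of 0.01 named by the study. The deposited value is an average over the peak, so it does not show whether a peak missed that rate. With peaks below 2 left out, 5 (control Kac), 5 (SB Kac) and 4 (Kbz) of the 9 genes had a call in the gene body plus 5 kb. The shares of protein-coding genes were 81.2%, 79.2% and 70.2%. At promoters SPI1 was called for control Kac (1 gene), SPI1 and GATA1 for SB Kac (2 genes) and SPI1 for Kbz (1 gene), against 74.7%, 73.2% and 62.7%.

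**Figure D1:**
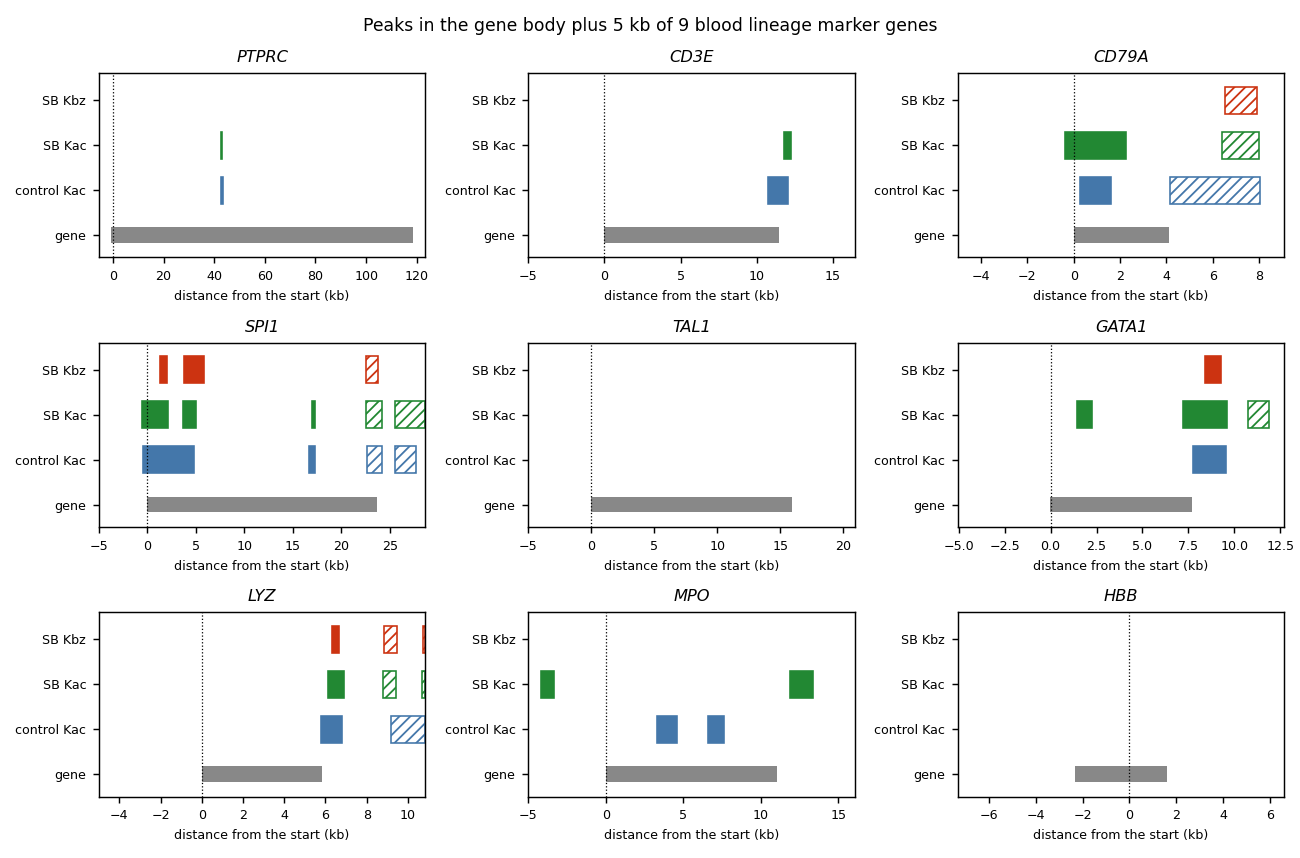
Peaks of each list in the gene body plus 5 kb of the 9 genes, plotted by distance in kb from the canonical start in the direction of transcription; grey bars are the annotated genes and hatched bars are peaks that overlap the promoter window of another protein-coding gene. SPI1 is the gene with peaks of all 3 lists inside its body, and TAL1 and HBB are empty.

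The windows contained 13 peaks of the control Kac list, 17 of the SB Kac list and 8 of the Kbz list. Each of the 8 Kbz peaks overlapped SB Kac, as did 93.7% of all Kbz peaks. Each also overlapped control Kac, for which the share of all Kbz peaks was not counted. Between the conditions, 11 of the 13 control Kac peaks overlapped SB Kac and 13 of the 17 SB Kac peaks overlapped control Kac, where the shares of the whole lists were 64.7% and 72.5%. Kbz was found at 9 of the 17 peaks of the SB Kac list (52.9%, against 33.8% of the whole list). A part of these peaks lay at promoters of neighbouring genes: 4 of the control Kac, 6 of the SB Kac and 4 of the Kbz peaks overlapped the promoter window of another protein-coding gene, and 4, 3 and 1 overlapped that of the marker gene itself. The SB Kac peaks with Kbz included those at the promoters of the neighbours ARHGEF1, MYBPC3 and YEATS4. For the SB Kac peak past the end of SPI1, the overlapping Kbz peak lay outside the window. The strength of a peak is given throughout as the percentile of its fold, that is the share of the peaks of the same list with an equal or lower enrichment over background. Peaks at the genes' own promoters stood at percentiles 8.75 to 74.3 of control Kac and 17.2 to 43.9 of SB Kac, and the only such Kbz peak stood at 27.6. Across all peaks in the windows the medians were 72.6, 57.4 and 48.7.

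**Figure D2:**
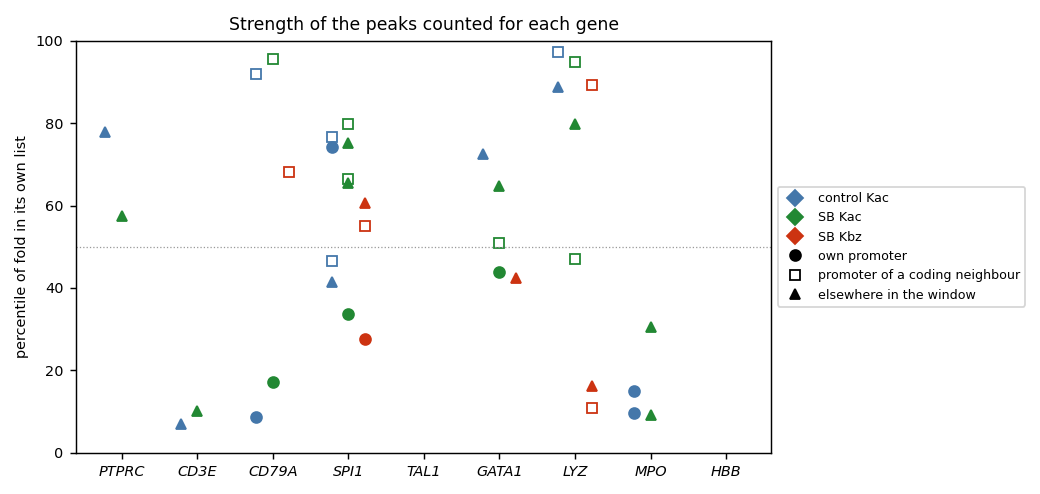
Percentile of fold within its own list for every peak counted for a gene; circles are peaks at the gene's own promoter, open squares peaks at the promoter of a coding neighbour and triangles the others. Peaks above percentile 85 lie at CD79A and LYZ, and of these only the control Kac peak of LYZ at 88.7 is not at a neighbour's promoter.

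SPI1 (chr11:47354860-47378547, minus strand, hg38), the gene of the factor PU.1, carried the most peaks. Its start lay under a control Kac peak of 5202 bp that reached from 418 bp upstream to 4783 bp downstream and stood at percentile 74.3. In the SB Kac list this stretch was called as 2 peaks with a gap of 1537 bp between them. The peak over the start covered 501 bp upstream to 2164 bp downstream and stood at percentile 33.8, and the one inside the first part of the gene covered 3702 to 4999 bp downstream and stood at 75.2. Kbz was likewise called as 2 peaks, from 1294 to 2049 bp downstream at percentile 27.6 and from 3823 to 5842 bp at percentile 60.5. The weaker peak of each pair was thus the one nearer to the start, and the Kbz peaks left the start itself uncovered. A further Kac peak lay in an intron 16.7 kb downstream of the start in control cells (percentile 41.4) and 17.0 kb downstream in SB-treated cells (65.5), with no Kbz peak. At the far end of SPI1 the 3 lists shared 1179 bp that lay within the promoter window of MYBPC3, which encodes a myosin-binding protein of heart muscle. Peaks there stood at percentile 76.6 of control Kac, 79.8 of SB Kac and 55.1 of Kbz. In all, 28.6% of the SPI1 window was covered by control Kac, 27.1% by SB Kac and 11.9% by Kbz, against medians of 7.24%, 7.14% and 2.32% over protein-coding genes. The coverage of SPI1 includes the peaks at the MYBPC3 promoter.

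CD79A (chr19:41877279-41881372, plus strand), the B cell receptor chain, was called for acetylation only at low strength. The control Kac peak began 256 bp downstream of the start and ended at 1603 bp, at percentile 8.75. The SB Kac peak covered the start, from 373 bp upstream to 2280 bp downstream, at percentile 17.2. Their −log10 q was 1.60 and 1.70, so neither remained at a value of 2. The strong peaks counted for CD79A lay beyond its end, at the promoter of the neighbouring gene ARHGEF1. There the 3 lists shared a stretch of 1408 bp, and the peaks stood at percentile 91.8 of control Kac, 95.5 of SB Kac and 68.3 of Kbz.

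The promoter sequence of CD79A is shown because it is the only one of those available here that an acetylation peak overlapped. Sequences of 300 bases, 250 before and 50 after the start, were taken from RefSeq (GRCh38.p14) and are written 5′ to 3′ on the strand of the gene, with CG pairs in capitals since the share of promoters under a peak depended on their number. Entries were found for 4 of the 9 genes, and CD3E, SPI1, LYZ, MPO and HBB had none.
CD79A, chr19:41877029-41877328: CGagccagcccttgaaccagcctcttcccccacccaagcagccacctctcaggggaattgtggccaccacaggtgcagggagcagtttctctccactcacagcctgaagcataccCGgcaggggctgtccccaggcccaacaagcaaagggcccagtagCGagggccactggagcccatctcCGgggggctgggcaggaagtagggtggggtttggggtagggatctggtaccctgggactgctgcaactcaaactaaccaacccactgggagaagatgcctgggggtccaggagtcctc
It has 4 CG pairs, against a median of 14 over 35116 promoters. Of the promoters with 0 to 4 CG pairs, 14.9% were overlapped by control Kac, 12.7% by SB Kac and 3.90% by Kbz. The CD79A sequence was overlapped by SB Kac only.

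PTPRC (chr1:198638457-198757476, plus strand), the CD45 gene, is the longest of the 9 and its window of 129 kb exceeded that of 85.1% of protein-coding genes. It had no peak within 3 kb of any of its starts. A Kac peak lay in an intron 42.8 kb downstream of the start in either condition. It measured 708 bp in control cells, at percentile 77.9, and 323 bp in SB-treated cells, at percentile 57.4, with −log10 q values of 6.96 and 5.53. The nearest Kbz peak lay 188 kb upstream of the start. The promoter of PTPRC is AT-rich.
PTPRC, chr1:198638790-198639089: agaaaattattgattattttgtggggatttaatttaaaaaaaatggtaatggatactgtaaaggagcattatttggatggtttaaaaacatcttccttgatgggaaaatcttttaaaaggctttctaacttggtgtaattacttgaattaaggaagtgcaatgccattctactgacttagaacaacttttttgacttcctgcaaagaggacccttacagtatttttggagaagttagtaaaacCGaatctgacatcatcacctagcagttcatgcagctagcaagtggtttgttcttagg
It holds 1 CG pair and has a GC content of 33.7%, at percentile 3.39 of all promoters. The centre of the intronic SB Kac peak is shown for contrast, on the plus strand of hg38.
PTPRC intronic peak, chr1:198681821-198682120: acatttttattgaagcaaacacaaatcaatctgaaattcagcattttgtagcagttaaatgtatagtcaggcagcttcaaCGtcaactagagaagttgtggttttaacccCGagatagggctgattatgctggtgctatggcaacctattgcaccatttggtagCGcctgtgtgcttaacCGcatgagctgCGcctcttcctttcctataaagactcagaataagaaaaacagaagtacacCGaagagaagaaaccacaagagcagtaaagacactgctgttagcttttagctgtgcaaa
It holds 6 CG pairs, where the median over the centres of 63281 SB Kac peaks was 4. The only other annotated start within 3 kb of this peak was that of the pseudogene PEBP1P3.

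CD3E (chr11:118304730-118316175, plus strand), the T cell receptor chain, had peaks at its end and none at its start. A control Kac peak of 1321 bp overlapped the last part of the gene from 10752 bp downstream of the start, at percentile 7.05. An SB Kac peak of 487 bp lay 320 bp past the end of the gene, at percentile 10.1. Both had a −log10 q of 1.6 and neither remained at a value of 2. The nearest Kbz peak lay 33.9 kb downstream of the start, at the promoter of CD3D, another chain of the same receptor.

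Of the erythroid regulators, GATA1 had peaks and TAL1 had none. At GATA1 (chrX:48786540-48794311, plus strand) the 3 lists shared a stretch of 871 bp just past the end of the gene, 8407 to 9277 bp downstream of the start and in no promoter window. The control Kac peak there began 52 bp after the end of the gene and stood at percentile 72.6. The SB Kac peak reached into the last exon and stood at 64.6, and the Kbz peak stood at 42.3. A peak near the start, from 1429 to 2265 bp downstream in an intron, was called in SB Kac (percentile 43.9, −log10 q 2.50) and not in control Kac or Kbz. Another SB Kac peak without a control Kac call, at percentile 50.8, overlapped the promoter window of HDAC6, a cytoplasmic deacetylase gene. Of all SB Kac peaks, 27.5% had no control Kac overlap. The promoter and the centre of the shared Kbz peak are shown to set the uncalled start beside the called stretch.
GATA1, chrX:48786340-48786639: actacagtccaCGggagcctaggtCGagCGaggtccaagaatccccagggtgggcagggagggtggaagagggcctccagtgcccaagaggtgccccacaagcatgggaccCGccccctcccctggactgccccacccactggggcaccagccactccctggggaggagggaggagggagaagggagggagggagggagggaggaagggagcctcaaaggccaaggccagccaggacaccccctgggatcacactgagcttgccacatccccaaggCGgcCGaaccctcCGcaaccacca
GATA1 Kbz peak, chrX:48795283-48795582: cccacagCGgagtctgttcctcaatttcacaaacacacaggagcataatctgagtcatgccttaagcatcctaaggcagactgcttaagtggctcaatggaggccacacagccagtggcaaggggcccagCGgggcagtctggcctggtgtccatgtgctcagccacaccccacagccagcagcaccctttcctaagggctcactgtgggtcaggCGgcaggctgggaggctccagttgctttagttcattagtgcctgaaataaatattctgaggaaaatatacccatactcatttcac
The promoter holds 7 CG pairs, in a class (5 to 9 pairs) of which 35.2% was overlapped by control Kac, 33.1% by SB Kac and 16.1% by Kbz. The peak centre, on the plus strand of hg38, holds 3, below the median of 10 over the centres of 24308 Kbz peaks.

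TAL1 (chr1:47216290-47232225, minus strand) was without a peak in its body and within 5 kb of it in any list. Such windows were found in 15.5% of protein-coding genes. The nearest peaks lay 24.1 kb downstream of the start for control Kac, 9.73 kb upstream for SB Kac and 39.1 kb downstream for Kbz. The Kac peaks were weak, at percentiles 32.0 and 11.1, and the Kbz peak stood at 67.5 and lay at the promoter of PDZK1IP1. The promoters of TAL1 are shown because, unlike those above, they are rich in CG pairs.
TAL1, chr1:47232286-47232585: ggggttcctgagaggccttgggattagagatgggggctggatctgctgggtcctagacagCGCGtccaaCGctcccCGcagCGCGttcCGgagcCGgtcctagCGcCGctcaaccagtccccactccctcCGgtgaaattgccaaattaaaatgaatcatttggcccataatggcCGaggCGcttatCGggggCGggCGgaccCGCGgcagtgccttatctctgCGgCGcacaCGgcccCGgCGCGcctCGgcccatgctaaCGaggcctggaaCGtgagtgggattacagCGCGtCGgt
TAL1, downstream start, chr1:47231666-47231965: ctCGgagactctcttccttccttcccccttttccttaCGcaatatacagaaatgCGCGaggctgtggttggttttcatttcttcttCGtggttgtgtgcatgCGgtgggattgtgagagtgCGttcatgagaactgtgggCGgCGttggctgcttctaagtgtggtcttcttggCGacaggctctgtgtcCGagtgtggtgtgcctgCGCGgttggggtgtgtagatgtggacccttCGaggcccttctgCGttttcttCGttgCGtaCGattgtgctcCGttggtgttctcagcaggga
They hold 30 and 19 CG pairs. Of the 7872 promoters with 30 or more, 75.7% were overlapped by control Kac, 79.3% by SB Kac and 61.8% by Kbz. In the class of 10 to 19 pairs the shares were 60.3%, 59.4% and 48.2%. Most promoters of either class thus had a Kac peak of each condition and the TAL1 promoters had none, whereas most promoters had Kbz in the class of 30 or more but not in that of 10 to 19.

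**Figure D3:**
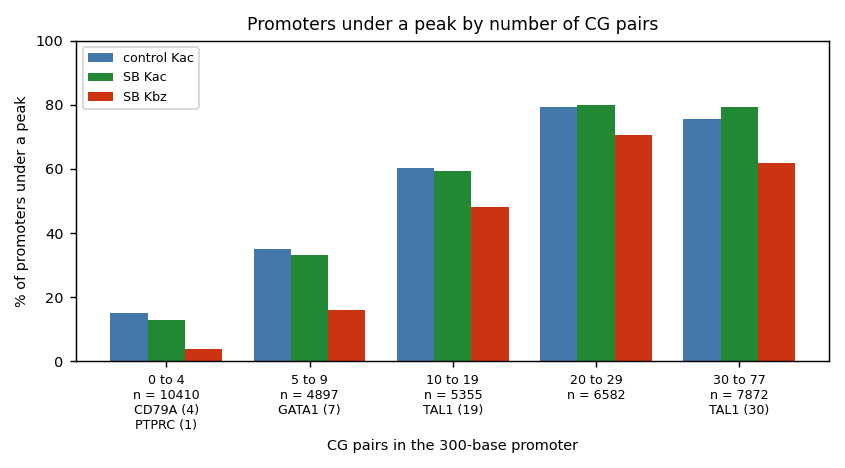
Percentage of 300-base RefSeq promoters overlapped by a peak of each list, by number of CG pairs, with the marker genes and their CG pairs named under their class. The share is lowest in the class of 0 to 4 pairs, which holds CD79A and PTPRC. It is highest in that of 20 to 29 pairs (79.2% control Kac, 79.9% SB Kac, 70.5% Kbz). The class of 30 or more, which holds a TAL1 promoter, is at 75.7% for control Kac.

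Short motifs were looked up in the same sequences, on both strands and with overlapping matches counted; none of the motifs contains another. GATAA, the core bound by GATA factors, occurred 2 times in the TAL1 promoter with 30 CG pairs and not in the other promoters shown, and 22.7% of all promoters held it. GGAAGT, a core of ETS factors such as PU.1, occurred 2 times in the PTPRC promoter and 1 time in that of CD79A, against 22.8% of all promoters. The E-box CANNTG occurred 1 time each in PTPRC, CD79A and the promoter of TAL1 with 30 CG pairs, and 68.7% of all promoters held it. GGGCGG, bound by SP factors, was found in GATA1 (1 match) and in both TAL1 promoters (1 and 2 matches), against 45.0%. TATAAA (11.5% of all promoters) and CCAAT (34.6%) were in none of the 5. In the peak centres, the PTPRC peak held 1 TATAAA and 1 CANNTG, found in 15.3% and 77% of SB Kac peak centres, and the GATA1 peak held 2 CANNTG, found in 71.0% of Kbz peak centres. Such matches describe the sequence and do not show binding.

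The myeloid products differed from each other. LYZ (chr12:69348381-69354234, plus strand) had no peak at its own promoter but had strong ones past its end. In each list a peak lay at the end of the gene, and the 3 lists shared 330 bp from 6325 to 6654 bp downstream of the start. These peaks stood at percentile 88.7 of control Kac, 79.7 of SB Kac and 16.3 of Kbz. They lay within 3 kb of the start of a long non-coding gene that has no symbol. The other peaks counted for LYZ, 1 for control Kac and 2 each for SB Kac and Kbz, overlapped the promoter window of YEATS4, which encodes a chromatin protein that binds acylated histones. The strongest of them stood at percentile 97.3 of control Kac, 94.9 of SB Kac and 89.3 of Kbz.

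MPO (chr17:58269855-58280935, minus strand) had only weak Kac peaks, and those of the conditions lay at different places. The control Kac peaks lay inside the gene, from 3292 to 4623 bp and from 6585 to 7600 bp downstream of the canonical start, at percentiles 15.0 and 9.62. They count as promoter peaks through other annotated starts of MPO. The SB Kac peaks lay outside the gene, from 4164 to 3313 bp upstream of the start and from 797 bp past the end, at percentiles 30.6 and 9.14. None of the 4 reached a −log10 q of 2, and no Kac peak of one condition overlapped a peak of the other, as for 35.3% of all control Kac and 27.5% of all SB Kac peaks. The nearest Kbz peak was 19.5 kb upstream of the start.

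HBB (chr11:5225464-5229395, minus strand) lay farthest from any peak. The nearest control Kac peak was 369 kb upstream of its start, farther than for 98% of protein-coding genes, and the nearest SB Kac and Kbz peaks lay at the same place, at the promoter of TRIM6. At that promoter the peaks stood at percentile 80.3 of control Kac, 84.9 of SB Kac and 57.8 of Kbz. Across the 9 genes the median distance from the canonical start to the nearest peak was 7.77 kb for control Kac, 6.15 kb for SB Kac and 19.5 kb for Kbz. The medians over all protein-coding genes were 0 kb, 0 kb and 0.198 kb, and 8, 7 and 9 of the 9 genes were farther from a peak than these. For the Kac lists, with a median of 0 kb, this only restates that 1 and 2 of the 9 starts lay under a peak. Of all protein-coding genes 59.1% and 60.4% had their start under a peak of these lists.

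**Figure D4:**
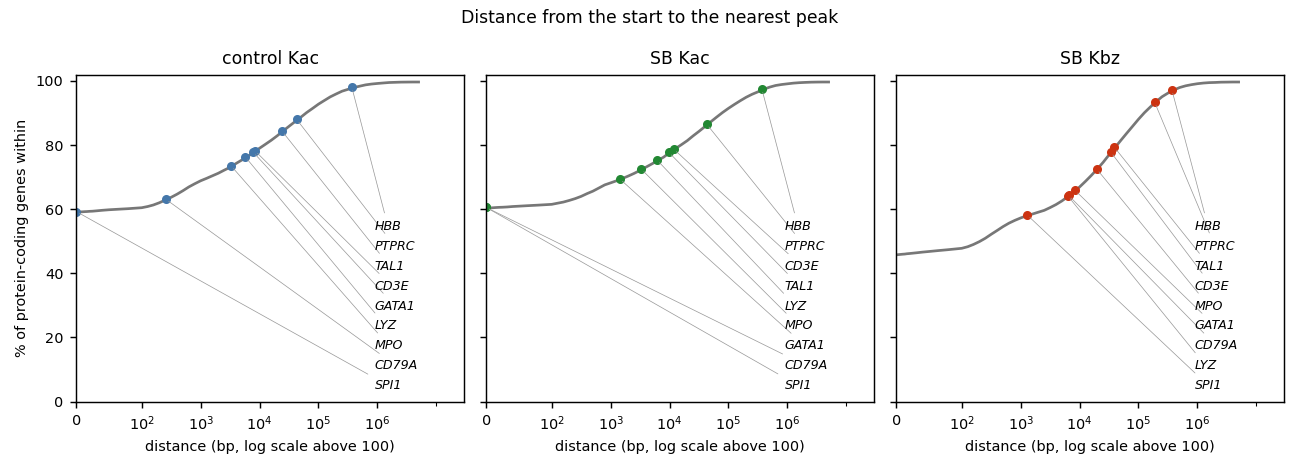
Percentage of protein-coding genes (grey line) whose canonical start lies within a given distance in bp of a peak, for each list, with the 9 genes as points on the line. SPI1 is nearest or among the nearest in every list, at 0 bp for both Kac lists and 1294 bp for Kbz, and HBB is the farthest.

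The pattern of calls over the 3 lists was then set beside that of all protein-coding genes. With the gene body plus 5 kb, 4 of the 9 genes were called in all 3 lists, a pattern shared by 14322 protein-coding genes (71.5%). PTPRC, CD3E and MPO were called in both Kac lists but not in Kbz, like 1667 genes (8.32%), and TAL1 and HBB were called in none, like 3099. At promoters SPI1 was called in all 3 lists, like 12850 genes (64.1%), and CD79A in both Kac lists only, like 1879. MPO was called in control Kac only, like 579 genes, and GATA1 in SB Kac only, like 384. The remaining 5 (PTPRC, CD3E, TAL1, LYZ and HBB) were called in none, like 4247 genes (21.2%).

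Other genes of the same lineages were taken from a list of 50, with 10 genes for each of 5 groups. Promoter peaks were found at 36 (control Kac), 35 (SB Kac) and 21 (Kbz) of the 50, or 72.0%, 70.0% and 42.0%, beside the shares of 76.5%, 75.7% and 64.6% given above. Fewer had a peak over the canonical start, with 15, 15 and 3 genes (30%, 30% and 6.0%). Of all protein-coding genes 59.1%, 60.4% and 45.8% had one, which is likewise fewer than had a promoter peak. The 3 genes with Kbz over the start were CD34 and KIT, surface proteins of blood progenitors, and EPOR, the erythropoietin receptor. By group, progenitor and pan-leukocyte genes had promoter peaks in 9 (control Kac), 9 (SB Kac) and 6 (Kbz) of 10. T cell genes had them in 8, 8 and 6, B cell genes in 9, 9 and 4, and myeloid genes in 6, 6 and 2. Erythroid and megakaryocyte genes had them in 4, 3 and 3, and the globin genes HBA1, HBA2, HBD, HBG1 and HBG2 had none. HBA1 and HBA2, and likewise HBG1 and HBG2, are near-identical, and only uniquely mapped reads were kept, so a lack of peaks there is uncertain.

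Among the 21 genes of this list with promoter peaks in all 3 lists, the Kbz peak with the highest percentile was at CSF3R, the receptor of a granulocyte growth factor, at 97.0. It was followed by the B cell surface gene CD72 at 93.5, the B cell factor EBF1 at 92.0, the T cell co-receptor gene CD8A at 89.9 and the signalling gene VAV1 at 87.8. The peaks of CSF3R and CD72 also overlapped promoters of other coding genes, MRPS15 and SIT1. No gene of the list had Kbz at its promoter without Kac, a pattern found in only 29 of 20033 protein-coding genes (0.145%). The promoters of FCER1G, an Fc receptor chain, and KLF1, an erythroid factor, were called in control Kac only, at percentiles 19.2 and 56.8, and that of AZU1, a granule protein of neutrophils, in SB Kac only at 21.1.

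**Figure D5:**
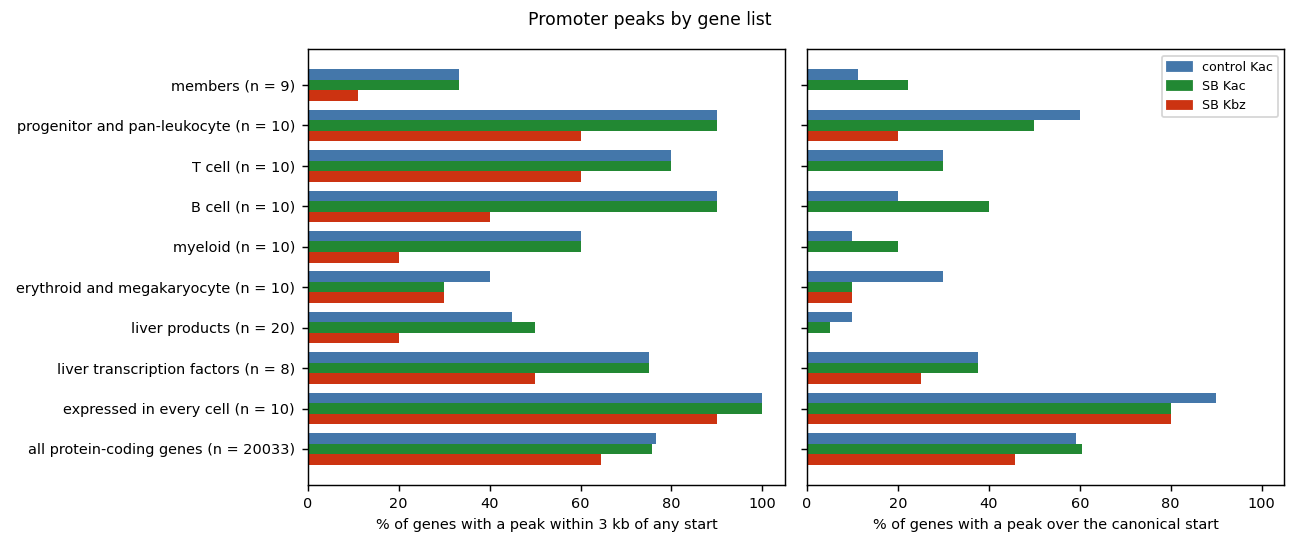
Percentage of genes with a peak within 3 kb of any annotated start (left) and with a peak over the canonical start (right) for the 9 genes (members), the 5 groups of the wider blood list, 2 lists of liver genes, genes expressed in every cell and all protein-coding genes. The 9 marker genes are at 33.3%, 33.3% and 11.1% on the left, and liver products are at 10.0% for control Kac on the right.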

How the data were processed

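HepG2 chromatin was digested with micrococcal nuclease, and as the study's methods and the labels state, the authors aligned 50 bp single reads to hg38 with Bowtie2 2.2.6, kept unique reads, removed PCR duplicates with SAMtools 0.1.19 and called peaks per library with MACS2 2.1.1. The broad setting and background track are not given in the sources used here. The deposited fold is a linear ratio over background, averaged over the broad peak. The deposited −log10 p and −log10 q are also averages, and reach to a q-value of 0.0487 (control Kac), 0.0494 (SB Kac) and 0.0485 (SB Kbz). The deposited score was not used. Depth is unknown, so no interval is given.

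Peaks on 24 chromosomes were kept (70326 control Kac, 63282 SB Kac, 24308 SB Kbz; 3 peaks of control Kac outside these were dropped). Genes came from GENCODE 44, whose hg38 build is that of the files. Counts were made per list with Python 3.11.15, numpy 2.4.6 and pandas 2.3.3, and figures with matplotlib 3.10.9. The search for overlaps was tested on simulated data, where 3000 of 3000 planted windows were recovered and 0 of 3000 beside peaks were called, and 0 of 60099 gene windows differed from bedtools 2.31.1. RefSeq promoters equalled hg38 in 35116 of 35116 cases. No test between groups was possible with 1 library each. Named were the 9 genes, coding neighbours whose promoter overlapped a counted peak, and of the wider list the 5 with the highest Kbz percentile and those called in only 1 Kac list. Of the liver lists, genes without a promoter peak in any list were named. PDZK1IP1, CD3D, TRIM6, CD34, KIT, EPOR, PEBP1P3, MRPS15, SIT1 and the globin genes fell outside these rules and were named after their values were seen. The same holds for APOA1, APOA2, F2, TAT, CEBPA, ONECUT1, HNF4A, TOMM40L and NR1I3. The marker genes and lists were chosen with earlier results of these data known.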

Additional observations from a re-analysis of the deposited data

How the results depend on the processing

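Each of 9 counts (genes with a peak in the gene body plus 5 kb, at their own promoter, and in the wider list at the promoter, for each peak list) was recomputed under the alternatives that apply to it, which gave 63 values. In 44 the count stayed within 1.5 times of the original, and 19 times it was lower by more. Shares of all protein-coding genes under the same setting are given in brackets. At a −log10 q of at least 5, own-promoter calls went from 3 (control Kac), 3 (SB Kac) and 1 (Kbz) to 0, 0 and 0 (53.0%, 58.7% and 45.4%), window calls from 7 to 4 in either Kac list (61.7% and 65.8%), and the wider list from 36 to 18 (control Kac) and from 35 to 19 (SB Kac), since fewer peaks passed. With the 15000 peaks of highest −log10 p per list, own-promoter calls were again 0, 0 and 0 (43.9%, 53.1% and 53.3%), window calls 3 and 3 for the Kac lists (52.7% and 60.1%), and the wider list 15 and 16. At a −log10 q of at least 2, own-promoter calls in control Kac were 1, at SPI1 (74.7%). Without the flank, window calls were 4 in SB Kac (77.4%) and 1 in Kbz (65.3%). With a 1 kb promoter the Kbz call at SPI1 ended, leaving 0 (61.8%), and with the canonical start only the wider list had 10 genes with Kbz in place of 21 (60.3%). Leaving out peaks at neighbours' promoters left window calls at 7 in either Kac list (68.2% and 66.6%), while those of Kbz fell from 4 to 3 (52.5%), with CD79A lost. No paired analysis was possible because there was only 1 library in a group, which likewise left no replicate to omit. Depth, which is unknown, limits every count of peaks between lists.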
